A study of Homo sapiens with 24 samples.

Results

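The E2F and DNA replication genes described here are 39 genes that were taken by their gene symbols from the deposited tables of normalized read counts, out of 18154 symbols in all. They comprise 5 E2F transcription factors and 34 genes of the replication machinery. All 39 had a row in each of the 3 tables and all passed the filter on low values, a mean of at least 10. The lowest member mean was 246.3 for GINS3 in the knockdown, 93.89 for POLE2 in the inhibitor experiment and 130.3 for POLA2 in the MB-3 experiment.

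RNA was sequenced from BT549, an established human cell line of triple negative breast cancer whose genotype the labels give as wild type. The knockdown experiment compared a control siRNA (siCtl) with a pool of siRNAs against the transcription factor gene MYC (siMYC, 72 h). The inhibitor experiment crossed KJ-PYR-9 (40 µM in DMSO, 3 h), a small molecule that the study used to inhibit MYC, with an agent labelled DEX, whose full name, dose and time the labels do not give. Its groups were vehicle (VEH), DEX, KJ-PYR-9 and KJ-PYR-9+DEX. The last experiment compared its own vehicle (VEH2) with MB3 (100 µM MB-3 in DMSO, 3 h), which the study used to inhibit the histone acetyltransferase GCN5, encoded by KAT2A. Each of the 8 groups had 3 libraries, labelled biological replicates. MB3 replicate 1 carries another name (MED3) in its title and MB3 in its treatment field.

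E2F factors bind the promoters of genes needed for S phase and are held in check by the RB protein until a cell commits to division. E2F1, E2F2 and E2F3 are mainly activators, while E2F7 and E2F8 repress the same class of promoter later in the cycle. Replication starts when ORC, CDC6 and CDT1 load the MCM2 to MCM7 helicase onto origins, which MCM10, CDC45 and the GINS complex then activate. Polymerase alpha and primase start each strand, RFC loads the PCNA clamp, polymerases delta and epsilon extend, and FEN1 and LIG1 join the fragments of the lagging strand. RRM1, RRM2, TYMS and TK1 supply nucleotides, and UHRF1 guides DNA methylation behind the fork. MYC binds the E-box CACGTG and is known to drive growth and entry into S phase in many tumour cells.

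Promoters of 5 members are printed to show the binding letters that genes with unlike responses share. With KJ-PYR-9 against VEH, as described below, E2F1, MCM2 and POLE rose, POLE2 fell and MCM6 did not pass. E2F1 is an activator. MCM2 and MCM6 are subunits of the same helicase, and POLE and POLE2 are the catalytic subunit and second subunit of polymerase epsilon. Each line runs 5′ to 3′ on the gene's strand from 170 bases before to 30 after the start of the gene in RefSeq (GRCh38.p14). E2F1 lies at chr20:33686356-33686555 (minus strand), MCM2 at chr3:127598241-127598440 (plus), MCM6 at chr2:135876414-135876613 (minus), POLE at chr12:132687313-132687512 (minus) and POLE2 at chr14:49688185-49688384 (minus). Capitals mark matches on either strand to the E2F core (TTCCCGC, its variant TTCGCGC, as well as TTGCCGC and its variant TTGGCGC) and to the E-box CACGTG.
E2F1: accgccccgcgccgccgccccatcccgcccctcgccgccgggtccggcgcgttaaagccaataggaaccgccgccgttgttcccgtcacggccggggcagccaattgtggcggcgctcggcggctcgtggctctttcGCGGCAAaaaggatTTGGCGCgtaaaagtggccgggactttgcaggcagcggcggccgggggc
MCM2: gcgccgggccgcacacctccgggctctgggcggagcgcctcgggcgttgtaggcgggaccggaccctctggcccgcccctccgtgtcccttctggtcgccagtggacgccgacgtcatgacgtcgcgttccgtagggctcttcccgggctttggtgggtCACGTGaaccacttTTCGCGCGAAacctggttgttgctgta
MCM6: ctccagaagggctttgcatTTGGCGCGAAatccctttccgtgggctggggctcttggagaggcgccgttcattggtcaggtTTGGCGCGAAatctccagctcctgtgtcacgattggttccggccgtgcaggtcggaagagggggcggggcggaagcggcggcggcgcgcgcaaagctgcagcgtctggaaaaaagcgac
POLE: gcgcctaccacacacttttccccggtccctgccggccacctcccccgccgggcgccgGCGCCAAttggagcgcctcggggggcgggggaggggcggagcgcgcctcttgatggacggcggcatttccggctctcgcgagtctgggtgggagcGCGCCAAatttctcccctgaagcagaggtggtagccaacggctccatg
POLE2: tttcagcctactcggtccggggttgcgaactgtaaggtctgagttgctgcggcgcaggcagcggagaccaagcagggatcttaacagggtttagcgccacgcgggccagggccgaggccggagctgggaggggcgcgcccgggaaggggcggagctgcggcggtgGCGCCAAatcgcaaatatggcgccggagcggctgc
MCM6 held 4 matches to the E2F core, in 2 overlapping pairs, MCM2 held 2 that overlap beside its E-box, E2F1 and POLE held 2 each and POLE2 held 1. RefSeq windows of 250 bases before to 50 after the start matched 35 members, all but MCM4, MCM5, GINS4 and E2F8. The E2F core was in 28 of the 35 (80.0%) and in 13.1% of 27305 promoters of all genes. CACGTG was in 3 of 35 (8.57%), those of MCM2, MCM7 and FEN1, and in 7.43% of all promoters. The letters CCAAT, on either strand, were in 21 of 35 (60.0%) and in 35.7% of all promoters. The E2F core was present in 11 of the 15 matched members that rose with KJ-PYR-9 and in both of the 2 that fell and in 15 of the 18 that did not pass. These matches are a description of letters in the window.

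Libraries of the knockdown held 18.77 to 24.16 M reads, those with the inhibitor 5.582 to 30.76 M and those with MB-3 8.306 to 19.96 M, each from the step found in its values. MYC itself stood at 2313, 2269 and 2138 normalized reads in siCtl and at 1655, 1789 and 1710 in siMYC, with no overlap and a log2 fold change of -0.38 (SE 0.11, limma adjusted p = 0.0587). In the inhibitor experiment it was higher with KJ-PYR-9 than with VEH by 2.48 (SE 0.21, limma adjusted p = 6.377e-05) and with DEX by 3.40 (adjusted p = 4.073e-06). KAT2A did not pass in MB3 (log2 fold change -0.20, SE 0.14, limma adjusted p = 0.5265). DEX replicate 1, with 26.04% of its reads in features with no gene symbol, and KJ-PYR-9+DEX replicate 3, with 8.722%, stood apart from the others, so counts in the inhibitor experiment are also given without these 2 libraries together. The mesenchymal marker VIM ranged from 9614 to 29320 over the 24 libraries, while leukocyte and endothelial markers summed to at most 39.24 in any library, from the 1 or 2 of 6 such genes with a row in the knockdown and inhibitor tables; none had a row in the MB-3 table. ERBB2, a marker of another breast cancer class that was set as low for these cells, was present at 558.7 to 2100. ESR1, PGR and EPCAM, set as low with it, are not reported here. Nor are ZEB1, AXL, CD44 and SPARC, set as expressed with VIM. In bulk RNA, a change in the share of cells in S phase and a change of mRNA per cell cannot be told apart.

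Per kilobase of the longest transcript, the control levels of the members spanned more than an order of magnitude. In VEH, PCNA stood at 1497 ± 136 normalized reads per kb (SD, n = 3), MCM7 at 1458 ± 158.6 and MCM4 at 1413 ± 124.7, neighbours that did not differ beyond their spread. MCM3 followed at 811.1 ± 32.7. The lowest members were E2F7 at 56.84 ± 6.72, POLA2 at 54.55 ± 2.43 and GINS3 at 46.46 ± 10.2 reads per kb, again with overlapping spread. MCM4, PCNA, MCM7 and MCM3 also held the first 4 places in siCtl and in VEH2.

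After 3 h of KJ-PYR-9, 17 of the 39 members were higher than in VEH, against 25.4% of the 13616 genes tested, and 3 were lower, against 17.5% (limma on log2(value + 1), Benjamini-Hochberg adjusted p under 0.05). The 17 were E2F1, MCM2, MCM3, MCM4, MCM5, MCM7, CDT1, CDC45, PCNA, RFC2, POLD1, POLE, TYMS, TK1, FEN1, LIG1 and UHRF1, and the 3 were E2F8, RFC4 and POLE2. The median log2 fold change of the members was 0.22, beside 0.06 for all genes. All fold changes are differences of means on the log2(value + 1) scale, given with the standard error (SE).

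**Figure D1:**
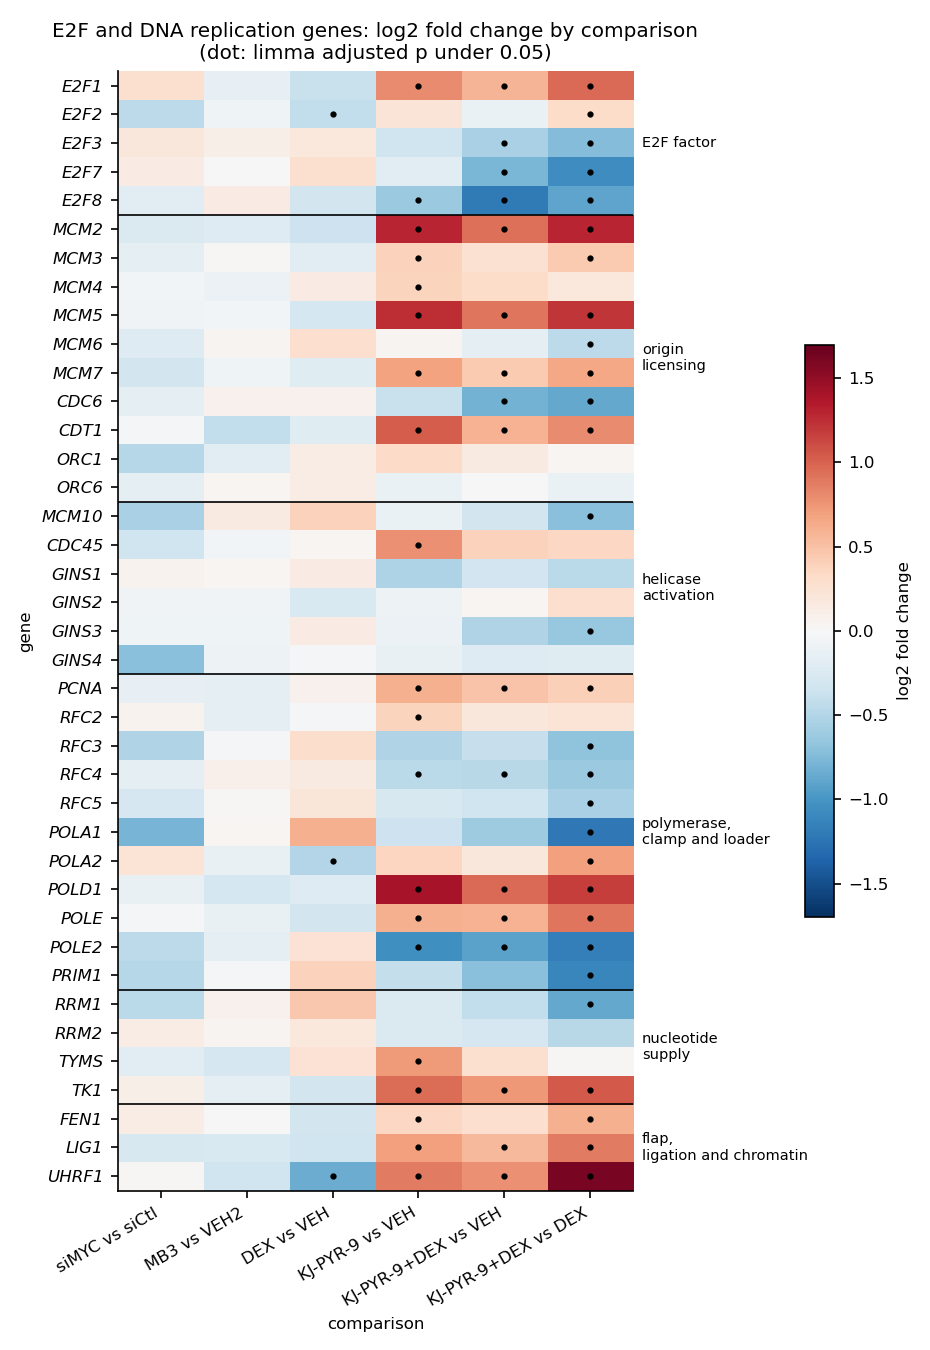
Log2 fold changes of the 39 members (rows, by role) in 6 comparisons (columns), red for higher and blue for lower, with a dot where the limma adjusted p was under 0.05. The 3 columns with KJ-PYR-9 hold 20, 17 and 29 dots and mix red and blue rows in every role but flap, ligation and chromatin, while the siMYC and MB3 columns hold 0.

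Of the 10 origin licensing genes, 6 rose and 0 fell, beside 25.4% and 17.5% of all genes. MCM2 (chromosome 3, 127598411 to 127622436) stood at 1375, 1868 and 1937 normalized reads in VEH and at 3907, 4078 and 4586 with KJ-PYR-9. The lowest treated library was above the highest VEH library by a wide margin, and the log2 fold change was 1.29 (SE 0.21, adjusted p = 0.002065). MCM5 (chromosome 22, 35400140 to 35455031) went from 1503, 1897 and 1888 to 3899, 4157 and 4572, a change of 1.26 (SE 0.20, adjusted p = 0.001928). MCM7 went from 3938, 4853 and 4697 to 6882, 7463 and 7237, a change of 0.68 (SE 0.12, adjusted p = 0.002825). CDT1, which brings the helicase to the origin, stood at 960.8, 1100 and 965.9 in VEH and at 1823, 2030 and 2343 with KJ-PYR-9, a change of 1.03 (SE 0.17, adjusted p = 0.002025). All 4 genes had VEH and KJ-PYR-9 libraries that did not overlap, beside 35.4% of all genes higher in this way. In either direction, 26 of the 39 members had no overlap, beside 64.6% of all genes.

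The other MCM subunits moved less. MCM3 rose by 0.40 (SE 0.11) and MCM4 by 0.38 (SE 0.14), and MCM4 turned to -0.17 under quantile scaling. MCM6 (chromosome 2, 135839626 to 135876443) stood at 953.6, 1031 and 990.9 in VEH and at 1027, 1065 and 993.6 with KJ-PYR-9, overlapping values with a change of 0.05. MCM2 thus gained on MCM6, its partner in the ring. The log2 ratio of MCM2 to MCM6 was 0.53, 0.86 and 0.97 in VEH and 1.93, 1.94 and 2.20 with KJ-PYR-9, a difference of 1.24 with no overlap (two-sided exact permutation p = 0.10, the smallest that 3 against 3 allows). Partner pairs, here and below, were chosen after their values were seen, so the lack of overlap and this p are only descriptions. CDC6, the loader that works with CDT1, was at 337 ± 35.6 against 440.9 ± 66.2 in VEH (SD, n = 3) and did not pass, nor did ORC1 and ORC6.

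**Figure D2:**
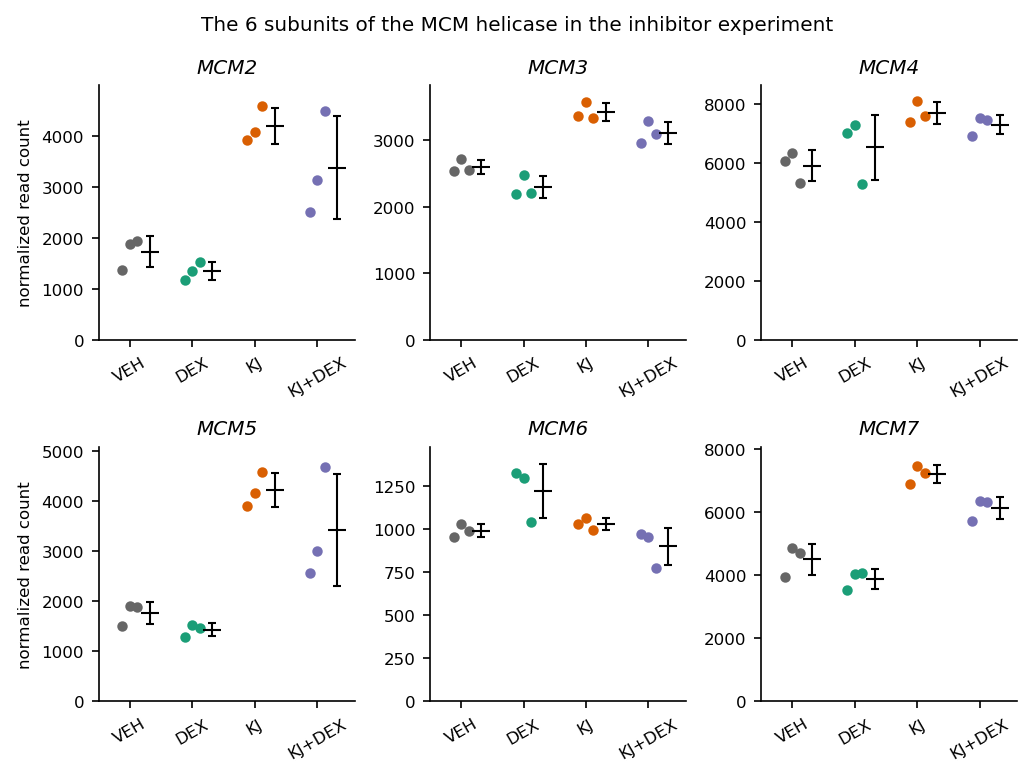
Normalized read counts of MCM2 to MCM7 in the 12 libraries of the inhibitor experiment (points), with the mean and SD of each group of 3 beside them; KJ stands for KJ-PYR-9. MCM2 and MCM5 are at most 1937 in every VEH library and at least 3899 in every KJ-PYR-9 library, whereas MCM6 overlaps between VEH and KJ-PYR-9.

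Polymerase genes split in the same way. POLD1, the catalytic subunit of polymerase delta (chromosome 19, 50384323 to 50418018), had the smallest p of all members. It stood at 854.5, 1060 and 937.8 in VEH and at 2202, 2518 and 2791 with KJ-PYR-9, a change of 1.40 (SE 0.21, adjusted p = 0.001402). POLE rose from 1765 ± 92 to 2681 ± 80.9 (log2 fold change 0.60, SE 0.12, adjusted p = 0.003748). Its partner POLE2 fell from 126.4, 129 and 93.78 to 55.82, 64.19 and 47.01, a change of -1.05 (SE 0.24, adjusted p = 0.007534). No KJ-PYR-9 library reached the lowest VEH library, as in 29.2% of all genes. The log2 ratio of POLE to POLE2, a pair chosen in the same way, was higher by 1.65 with KJ-PYR-9, again without overlap (exact permutation p = 0.10).

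The clamp PCNA rose by 0.60 (SE 0.16, adjusted p = 0.01262). Of its loader subunits, RFC2 rose by 0.38 and RFC4 fell by 0.45. RFC3 (-0.51) and RFC5 (-0.28) did not pass, and neither did the polymerase alpha and primase genes POLA1 (-0.36), POLA2 (0.36) and PRIM1 (-0.40). In the helicase activation group, 1 of 6 passed, beside 42.9% of all genes called in either direction. CDC45 rose from 302.4, 380.4 and 331.3 to 572.6, 574.1 and 583.5, a change of 0.78 (SE 0.17, adjusted p = 0.005555), while the GINS genes were between -0.52 for GINS1 and -0.08 for GINS2.

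Of the nucleotide genes, thymidine kinase TK1 went from 1072, 1309 and 1218 to 2136, 2374 and 2448, a change of 0.95 (SE 0.17, adjusted p = 0.00255), with no overlap. Thymidylate synthase TYMS rose by 0.72 (SE 0.17, adjusted p = 0.007376). Both subunits of ribonucleotide reductase stayed short of the threshold, RRM1 at -0.25 and RRM2 at -0.25. The flap, ligation and chromatin genes all rose, UHRF1 by 0.89, LIG1 by 0.70 and FEN1 by 0.35, beside 25.4% of all genes. Among the E2F factors, E2F1 rose from 1069, 1144 and 975.3 to 1599, 2027 and 1938 (log2 fold change 0.80, SE 0.16, adjusted p = 0.00385). The repressor E2F8 fell from 211.5, 259.9 and 170.4 to 125.4, 156.9 and 128.1 (-0.63, SE 0.19, adjusted p = 0.02083). E2F2 (0.22), E2F3 (-0.34) and E2F7 (-0.18) did not pass.

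**Figure D3:**
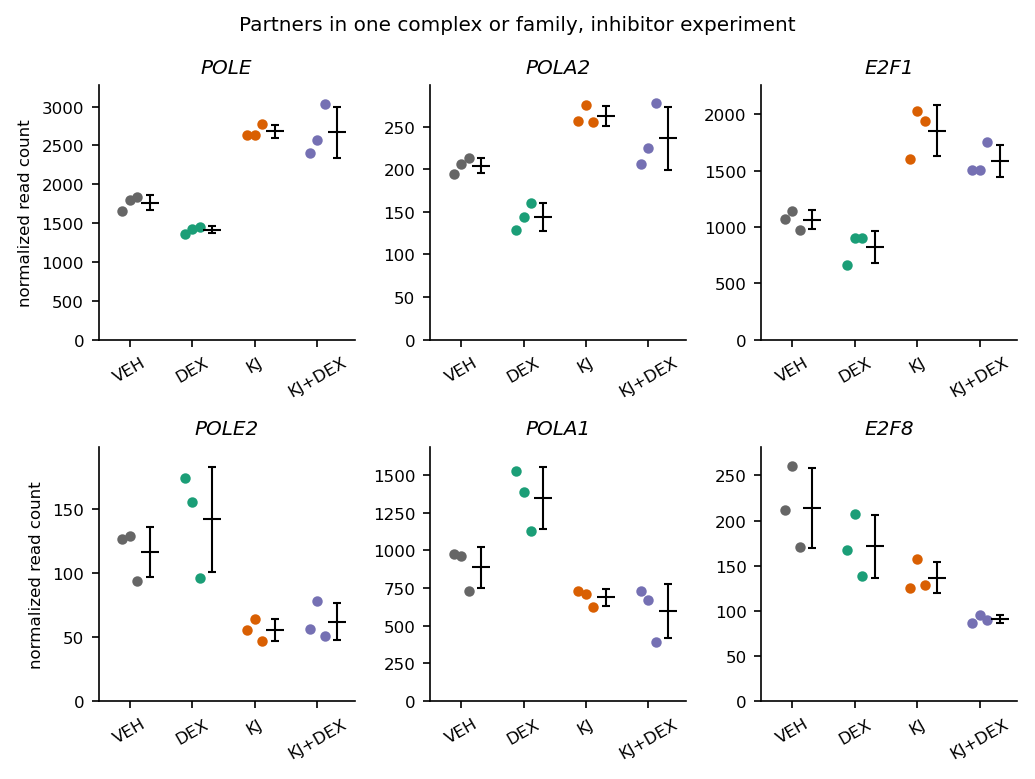
Normalized read counts of 3 pairs of partners, POLE above POLE2, POLA2 above POLA1 and E2F1 above E2F8, in the 12 libraries of the inhibitor experiment (points) with the mean and SD of each group of 3; KJ stands for KJ-PYR-9. The upper genes are higher and the lower genes lower in every KJ-PYR-9+DEX library than in every DEX library.

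With the replicate number as a block, which paired the libraries of this experiment, 19 members were higher (32.2% of all genes) and 9 lower (25.8%). The 6 added to the lower side were E2F3, CDC6, GINS1, RFC3, RFC5 and POLA1. Without DEX 1 and KJ-PYR-9+DEX 3, which only share the fit of this comparison, 18 were higher (30.4% of all genes) and 4 lower (23.8%). Leaving out single libraries kept 13 of the 17 higher calls and POLE2 in every run. MCM3 lost its call without VEH 1 or KJ-PYR-9 2 (adjusted p = 0.0538 and 0.0545), E2F8 without VEH 1, VEH 2, KJ-PYR-9 1 or KJ-PYR-9 3 (0.0595 to 0.0845), RFC2 without any but VEH 2 (0.0544 to 0.11), and FEN1, RFC4 and MCM4 without any of the 6 (0.0584 to 0.142, limma). The lower calls then numbered 1 without VEH 1, VEH 2, KJ-PYR-9 1 or KJ-PYR-9 3 and 2 without VEH 3 or KJ-PYR-9 2. The 8 cycling cell markers summed to 12290 to 15910 with KJ-PYR-9 and 14270 to 21850 in VEH. Of them, PLK1 rose by 0.55 and CDK1 fell by 1.73 (limma adjusted p = 0.01424 and 0.02142), beside 25.4% and 17.5% of all genes. The part of these markers in the result was not tested.

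The direction of a member's change went with the base composition of its transcript. The GC content of the longest transcript ran from 39.1% for RFC3 to 65.0% for POLD1. The Spearman correlation of GC content with the KJ-PYR-9 fold change was 0.83 over the 39 members and 0.72 over the 13046 genes with a transcript, so the trend was also present over all genes. These genes share the same 6 libraries, and the correlation is a description. Members that rose had a median GC content of 55.6% and those that fell 45.4%. PCNA, at 45.3%, was the rising member of lowest GC content. In the partner ratios above, MCM2 is at 58.1% and MCM6 at 43.1%, and POLE is at 55.6% and POLE2 at 43.7%. RRM1 and RRM2 are closer, at 43.5% and 45.8%, and their log2 ratio differed by 0.0 between KJ-PYR-9 and VEH. In other comparisons that ratio did differ without overlap. The difference was 0.28 for DEX against VEH, -0.41 for KJ-PYR-9+DEX against DEX and -0.59 for siMYC against siCtl. For MB3 against VEH2 it was 0.02, with overlap. When the trend with GC content and length over all genes was removed, 9 members were higher (16.4% of all genes) and 1 lower (8.06%), and the correlation was 0.39. MCM2 (0.79), MCM5 (0.83), POLD1 (0.64), TK1 (0.32), CDC45 (0.64), TYMS (0.68), PCNA (0.81), UHRF1 (0.58) and POLE2 (-0.73) still passed, and MCM6 was then called higher. E2F1, MCM3, MCM4, MCM7, CDT1, RFC2, POLE, FEN1, LIG1, E2F8 and RFC4 did not. The part of base composition in the measured changes was not tested.

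**Figure D4:**
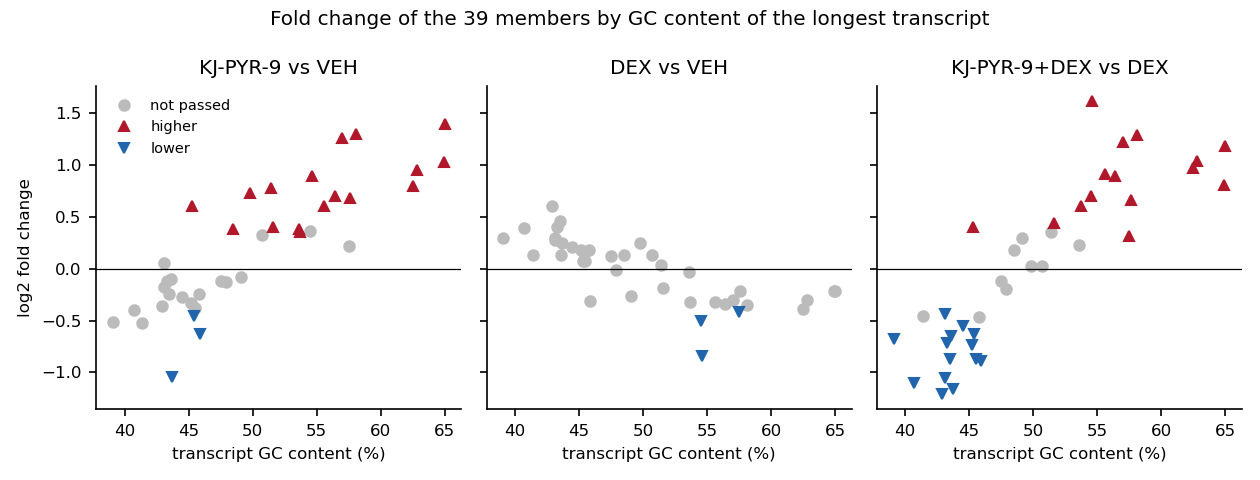
Log2 fold change (vertical axis) of each of the 39 members against the GC content in percent of its longest transcript (horizontal axis) in 3 comparisons, with triangles for members that passed. Changes rise with GC content in both KJ-PYR-9 comparisons (Spearman 0.83 and 0.88) and fall with it for DEX (-0.84). Over all genes these correlations were 0.72, 0.815 and -0.68.

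DEX alone gave few calls among the members. None of the 39 were higher than in VEH (9.5% of all genes) and 3 were lower (8.02%), namely UHRF1, POLA2 and E2F2 (limma). The median was 0.07, beside 0.02 for all genes. UHRF1, which recruits the maintenance methyltransferase to replicated DNA, stood at 1718, 2184 and 1766 in VEH and at 768.8, 1230 and 1211 with DEX, a change of -0.84 (SE 0.21, adjusted p = 0.02157). POLA2, the regulatory subunit of polymerase alpha, went from 194.5, 205.7 and 212.6 to 128.1, 144 and 160.8 (-0.50, SE 0.14, adjusted p = 0.03168). E2F2 went from 538.9, 646.4 and 489.2 to 414.9, 435.7 and 394.6 (-0.42, SE 0.13, adjusted p = 0.04207). In all 3 genes every DEX library was below every VEH library, as in 20.1% of all genes, but a pick by call favours such separation. Over all 39 members, 10 had no overlap in either direction, beside 43.7% of all genes.

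The next 3 members by p did not pass, though their groups did not overlap. POLE was at 1364, 1428 and 1454 with DEX against 1661, 1798 and 1836 in VEH (-0.32, limma adjusted p = 0.08146). POLA1, the catalytic subunit beside POLA2, was at 1528, 1387 and 1126 against 973.7, 961.2 and 728.3 (0.60, adjusted p = 0.08575). FEN1 was at 1098, 1288 and 1114 against 1357, 1543 and 1457 (-0.32, adjusted p = 0.09249). With the replicate block, 4 members were higher (23.9% of all genes), MCM6, MCM10, POLA1 and RRM1, and 8 lower (19.6%), E2F1, E2F2, MCM2, POLA2, POLE, TK1, FEN1 and UHRF1. edgeR called 0 members higher (11.5% of all genes) and DESeq2 called POLA1 alone (15.0%), and 7 members (17.9%) had an unadjusted p under 0.05 in either direction, against 37.8% of all genes. Without DEX 1 and KJ-PYR-9+DEX 3 together, 0 members were higher (7.41% of all genes) and 2 lower (5.57%), POLA2 and UHRF1. The lower count was 0 without VEH 2 or DEX 1, 1 without VEH 1, VEH 3 or DEX 2, and 2 without DEX 3, when MCM6 and PRIM1 were called higher. With the GC content and length trends removed it was 0 (3.92% of all genes).

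Adding KJ-PYR-9 to DEX changed the most members. Against DEX alone, 15 of 39 were higher (33.6% of all genes) and 14 lower (35.1%), shares close to the background (limma). The median was 0.03, beside 0.00 for all genes. The higher members were E2F1, E2F2, MCM2, MCM3, MCM5, MCM7, CDT1, PCNA, POLA2, POLD1, POLE, TK1, FEN1, LIG1 and UHRF1. The lower members were E2F3, E2F7, E2F8, MCM6, MCM10, CDC6, GINS3, RFC3, RFC4, RFC5, POLA1, POLE2, PRIM1 and RRM1.

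UHRF1 had the smallest p, with 768.8, 1230 and 1211 normalized reads in DEX and 2602, 3159 and 4019 with both agents (log2 fold change 1.62, SE 0.21, adjusted p = 0.0001734). POLE went from 1364, 1428 and 1454 to 2403, 2572 and 3038 (0.91, SE 0.12, adjusted p = 0.0001821). TK1 went from 805.4, 1024 and 1093 to 1725, 1848 and 2451 (1.04, SE 0.17, adjusted p = 0.0004356). None of these 3 had overlapping groups, beside 33.8% of all genes that were higher without overlap. E2F1 went from 658.9, 904.1 and 897.7 to 1504, 1507 and 1753 (0.96, SE 0.16, adjusted p = 0.0004605). MCM2 went from 1171, 1346 and 1523 to 2507, 3137 and 4475 (1.29, SE 0.21, adjusted p = 0.0004834), and MCM5 from 1284, 1528 and 1466 to 2567, 3002 and 4673 (1.22, SE 0.20, adjusted p = 0.0005181). The highest value of both MCM genes was that of KJ-PYR-9+DEX replicate 3, a library that stood apart.

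The split within complexes was again present, between partners of unlike GC content (POLA2 54.5%, POLA1 42.9%, PRIM1 40.7%, POLE 55.6%, POLE2 43.7%). The part of base composition in it was not tested. POLA2 rose by 0.70 (SE 0.14), while its partners POLA1 and PRIM1 fell by 1.21 (SE 0.23) and 1.11 (SE 0.26). POLA1 stood at 1528, 1387 and 1126 in DEX and at 728.1, 673.9 and 391.1 with both agents. The log2 ratio of POLA2 to POLA1 was higher by 1.91 and that of POLE to POLE2 by 2.07, both without overlap (exact permutation p = 0.10 each). These pairs were chosen after their values were seen, so this is a description. MCM6 fell by 0.44 (SE 0.14, limma adjusted p = 0.0134) while MCM2, MCM3, MCM5 and MCM7 rose. In the loader, RFC3, RFC4 and RFC5 fell by 0.68, 0.62 and 0.55, and RFC2 (0.23) did not pass. The groups overlapped in RFC3, RFC5 and RRM1, and in none of the other members that fell, beside 35.2% of all genes lower without overlap. In either direction, 27 of the 39 members had no overlap, beside 69.1% of all genes. Among the E2F factors all 5 passed, beside 68.7% of all genes called in either direction. The activators E2F1 and E2F2 rose, the latter by 0.31, while E2F3 fell by 0.73 and the repressors E2F7 and E2F8 by 1.06 and 0.89.

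The correlation of these changes with GC content was 0.88 over the members and 0.81 over all genes. With the trend removed, 5 members were higher (14.0% of all genes), namely MCM2, MCM5, PCNA, RFC3 and UHRF1, and 6 were lower (18.1%), namely E2F2, E2F3, E2F7, E2F8, POLA1 and POLE2. That step turned the direction of E2F1 (-0.05), E2F2 (-0.57), MCM7 (-0.16), CDT1 (-0.33), MCM6 (0.14) and RFC3 (0.45). Without DEX 1 and KJ-PYR-9+DEX 3 together, 13 members were higher (25.3% of all genes) and 6 lower (27.8%). The lower members were E2F3, E2F7, E2F8, POLA1, POLE2 and PRIM1, and E2F2 and PCNA were no longer called higher. The lower count was 9 without DEX 2. Cycling cell markers summed to 11290 to 17110 with both agents and 16060 to 22100 with DEX. Of the 8, PLK1 rose by 0.88 (33.6% of all genes) and 5 fell (35.1%), CDK1 by 2.13 and KIF11 by 1.37 among them. The part of these markers was not tested.

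Against VEH, the libraries with both agents had 11 members higher (18.4% of all genes) and 6 lower (18.2%), with a median of 0.03 beside 0.00 for all genes (limma). E2F1, MCM2, MCM5, MCM7, CDT1, PCNA, POLD1, POLE, TK1, LIG1 and UHRF1 were higher, and E2F3, E2F7, E2F8, CDC6, RFC4 and POLE2 were lower. This comparison shares its VEH libraries with the comparison of KJ-PYR-9 alone. E2F8 had the smallest p. It stood at 211.5, 259.9 and 170.4 in VEH and at 86.25, 95.61 and 90.4 with both agents, a change of -1.21 (SE 0.19, adjusted p = 0.002519). POLE was at 2403, 2572 and 3038 against 1661, 1798 and 1836 (0.59, SE 0.12, adjusted p = 0.007939). POLD1 was at 1474, 1705 and 2494 against 854.5, 1060 and 937.8 (0.96, SE 0.21, adjusted p = 0.0104). MCM5, MCM2 and TK1, whose values in each library are given above, were higher by 0.91, 0.94 and 0.73, again without overlap with VEH. Of all genes, 25.9% were higher without overlap.

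E2F8, POLE and POLD1 alone kept these calls whichever of the 6 libraries was left out. The counts were 2 higher and 1 lower without VEH 1, 9 and 1 without VEH 2, 7 and 6 without VEH 3, and 5 and 1 without KJ-PYR-9+DEX 3. Without DEX 1 and KJ-PYR-9+DEX 3 together they were 9 (11.8% of all genes) and 1 (9.87%). With the replicate block, 14 members were higher (27.4% of all genes) and 13 lower (28.0%). With the GC content and length trends removed, MCM2, MCM5 and PCNA were higher (6.73% of all genes) and E2F8 was lower (4.9%), and E2F1 (-0.00013), MCM7 (-0.003) and CDT1 (-0.07) were at or below 0.

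The interaction asks whether the KJ-PYR-9 effect differed between cells with and without DEX. No member passed in either direction, against 7.15% of all genes with a positive and 9.62% with a negative difference, the KJ-PYR-9 effect with DEX minus that without (limma). An unadjusted p under 0.05 was found for 5 members (12.8%), against 31.4% of all genes. Without DEX 1 and KJ-PYR-9+DEX 3 together, 0 members passed in either direction (5.7% and 7.74% of all genes). The median of the members was -0.17, beside -0.11 for all genes. Quantile scaling moved the median of the members to 0.015 and that of all genes to 0.035. The KJ-PYR-9 effect on TYMS was 0.72 in VEH and 0.02 in DEX, a difference of -0.70 (SE 0.24, adjusted p = 0.06735). For E2F7 the effects were -0.18 and -1.06, for POLA1 -0.36 and -1.21, and for MCM6 0.05 and -0.44 (adjusted p of the differences 0.08137, 0.09632 and 0.1034). The effect on UHRF1 was 0.89 in VEH and 1.62 in DEX (adjusted p = 0.1167), and on MCM10 -0.12 and -0.71 (adjusted p = 0.1851). For MCM2 the 95% interval of the difference ran from -0.66 to 0.66. With the replicate block, UHRF1 was called higher (12.4% of all genes) and TYMS, E2F7, POLA1, MCM6, MCM10 and PRIM1 lower (20.0%), so these calls depended on the pairing. edgeR and DESeq2 each called UHRF1 alone (9.21% and 10.3% of all genes higher).

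After 72 h of MYC siRNA, no member passed in either direction, against 11.4% of all 14788 genes higher and 4.78% lower (limma), and 6 members (15.4%) had an unadjusted p under 0.05, against 36.3% of all genes. The median was -0.16, beside 0.05 for all genes, and 29 of the 39 fold changes were below 0. edgeR called POLA1 and POLE2 lower (8.24% of all genes), and DESeq2 called 8 lower (11.9%), those 2 with MCM10, GINS4, ORC1, RFC3, PRIM1 and RRM1. The 6 members with the smallest p were all below siCtl in every library, as were 17.1% of all genes, but a pick by p favours such separation. Over all 39 members, 8 had no overlap in either direction, beside 43.7% of all genes. POLA1 stood at 1934, 2018 and 2352 normalized reads in siCtl and at 1646, 980.9 and 1092 in siMYC (log2 fold change -0.79, SE 0.21, limma adjusted p = 0.05039). POLE2 stood at 346.8, 412.1 and 407.3 against 319.9, 269.9 and 267 (-0.44, SE 0.14, adjusted p = 0.06993). GINS4 stood at 1496, 1537 and 1822 against 947.9, 1417 and 707.3 (-0.71, SE 0.26, adjusted p = 0.09848). In POLA1 and GINS4 a single siMYC library lay close to the controls, replicate 1 and replicate 2 respectively.

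PRIM1 was at 427.8, 461.1 and 527.7 in siCtl and at 341.7, 414 and 267 in siMYC (-0.49, adjusted p = 0.1155). MCM10 was at 1168, 1189 and 1554 against 918.2, 1122 and 657.2 (-0.56, adjusted p = 0.1288), and RFC3 at 1184, 1196 and 1491 against 1084, 994 and 685.1 (-0.51, limma adjusted p = 0.1289). Members that KJ-PYR-9 raised did not pass here. MCM2 was at -0.24 (95% interval -0.63 to 0.15), MCM5 at -0.06, POLD1 at -0.13 and CDT1 at -0.02. E2F1 was at 0.27, with 1517, 2291 and 1297 in siMYC against 1274, 1285 and 1562. Leaving out siMYC 1 brought POLA1 and POLE2 past the threshold (adjusted p = 0.01096 and 0.03659), and leaving out siMYC 2 brought GINS4 past it (0.03413). The Spearman correlation with GC content was 0.34 over the members and 0.40 over all genes. Cycling cell markers summed to 18630 to 27530 in siMYC and 34130 to 42160 in siCtl. Of the 8, MKI67 and KIF11 fell by 1.06 and 1.30, beside 4.78% of all genes lower. The part of these markers was not tested.

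**Figure D5:**
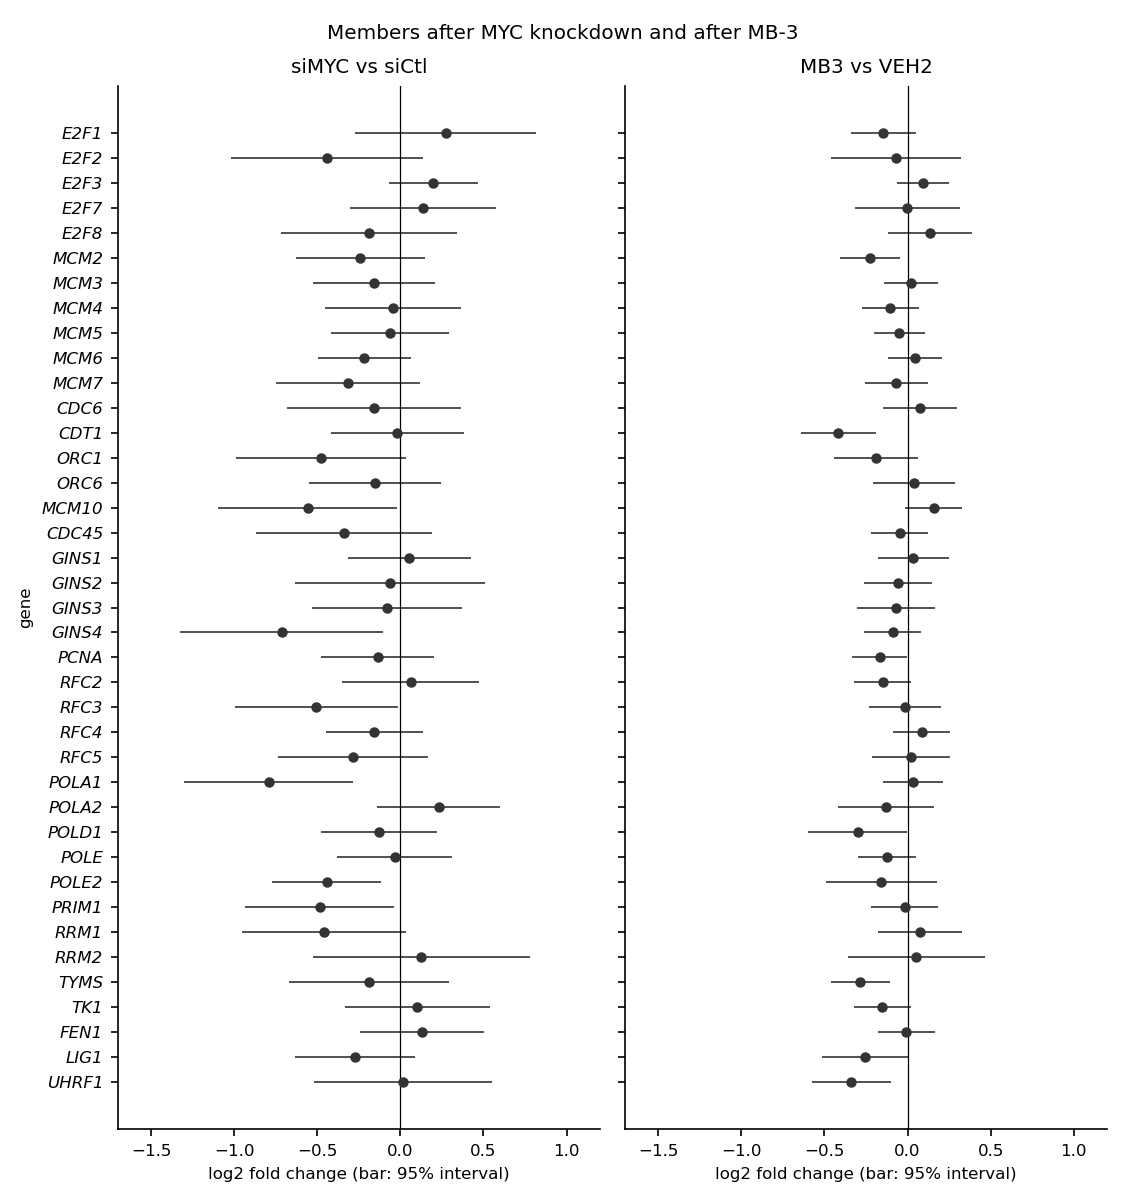
Log2 fold changes (horizontal axis, points) of the 39 members with 95% intervals from limma (bars) after MYC siRNA (left) and after MB-3 (right). In siMYC 29 of 39 points lie left of 0 and the intervals are wide, while in MB3 every point lies between -0.42 and 0.16.

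MB-3 gave no call among the members, and few anywhere. Of 10048 genes, 0.0299% were called higher and 0.0299% lower (limma). The member median was -0.06, beside 0.01 for all genes, and 6 members (15.4%) had an unadjusted p under 0.05, all of them lower in MB3. That share was close to the 13.7% of all genes. CDT1 was at 927, 969.8 and 931.1 in VEH2 and at 625.7, 706.4 and 796.8 in MB3 (log2 fold change -0.42, SE 0.10, adjusted p = 0.233). TYMS was at 851.7, 828.4 and 774.2 against 635.8, 702.8 and 677.1 (-0.28, adjusted p = 0.2701). UHRF1 was at 1135, 1087 and 1027 against 746.6, 876 and 958.7 (-0.34, adjusted p = 0.2874). The 2 groups did not overlap in any of these genes.

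MCM2 was at 1545, 1527 and 1488 in VEH2 and at 1193, 1353 and 1361 in MB3 (-0.23, limma adjusted p = 0.3214). PCNA was at 2736, 2788 and 2542 against 2367, 2446 and 2365 (-0.17, adjusted p = 0.3585), and POLD1 at 836.3, 901 and 902.3 against 579.4, 762.6 and 822.6 (-0.30, adjusted p = 0.3618). These 3 genes also had groups without overlap, with 11.6% of all genes lower in this way, but a pick by p favours such separation. Over all 39 members, 12 had no overlap in either direction, beside 23.0% of all genes. Intervals here were narrow, and that of MCM5, for example, ran from -0.20 to 0.10. The correlation with GC content was -0.63 over the members and -0.62 over all genes. Cycling cell markers summed to 17600 to 20080 in MB3 and 17140 to 19300 in VEH2.

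Of 45 replication genes outside the 39, 7 rose and 10 fell with KJ-PYR-9 against VEH, beside 25.4% and 17.5% of all genes, with a median of -0.28. CHTF18, of an alternative clamp loader, rose by 1.11 (SE 0.23), while DBF4 and CDC7, the 2 parts of the kinase that fires origins, fell by 1.26 and 1.12, and HELLS fell by 1.11. Against DEX, KJ-PYR-9+DEX raised 10 and lowered 24 of the 45, beside 33.6% and 35.1% of all genes, with ORC2, ORC4, DNA2 and DBF4 down by 1.64, 1.62, 1.62 and 1.61. DEX alone raised 4, among them the primase subunit PRIM2 by 0.98 (SE 0.15, limma adjusted p = 0.002431), and lowered 1, TICRR, beside 9.5% and 8.02% of all genes. In the knockdown, 1 rose (POLD4, 0.70) and 5 fell, among them MTBP (-0.94), HELLS (-0.86) and POLD2 (-0.67), beside 11.4% and 4.78% of all genes. In MB3, 0 of the 44 tested passed.

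Of 18 regulators in the E2F and RB pathway, 1 rose and 4 fell with KJ-PYR-9 against VEH, beside 25.4% and 17.5% of all genes. E2F4, a repressive family member, rose by 0.62, while SKP2, which marks the inhibitor p27 for destruction, CCNE2, RB1 and TFDP2 fell by 1.19, 1.07, 0.74 and 0.46. With KJ-PYR-9+DEX against DEX, 3 rose and 10 fell of the 18, beside 33.6% and 35.1% of all genes, among them LIN9 (-2.20), CCNE2 (-1.59), LIN54 (-1.41) and RBL1 (-1.31). For these regulators and the replication genes outside the members, no counts are given with the GC content and length trends removed. Nor are counts given for them without DEX 1 and KJ-PYR-9+DEX 3. DEX alone raised LIN54 and RBL2 and lowered CCNE1, beside 9.5% and 8.02% of all genes. In siMYC, SKP2, E2F5 and TFDP2 fell by 0.81, 0.62 and 0.50 (4.78% of all genes) and 0 rose (11.4%).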

How the data were processed

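RNA-seq of 24 BT549 libraries in 3 experiments was used. The deposited values are normalized read counts per gene (a linear signal, each library's counts divided by 1 factor); bcl2fastq, SAMtools, featureCounts, DESeq2 and the GRCh38 build are named, with no role, per the submitters' processing notes, and the aligner is not given in the sources used here. All values were whole multiples of 1 step per library (100% within 0.0001), which gave the depth in reads. The MB-3 table holds no gene with a mean under 83.9, so its step rests on higher values, its depths are less sure and no count test was run on it. Features with no gene symbol held 1.618 to 26.04% of reads in the inhibitor experiment and were left out of the tests. Groups came from the labels.

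Each experiment was fitted by itself in limma 3.58.1 (R 4.3.3) on log2(value + 1), over genes with a mean of at least 10, two-sided, with Benjamini-Hochberg adjustment over all genes and a threshold of 0.05; the 12 inhibitor libraries shared 1 fit. The limma fit was also run on simulated counts of independent libraries, with no GC trend, replicate effect or outlying library. That run cannot show how the fit behaves where these are present, and its outcome is not reported here. Other pseudocounts, filters, scalings, priors, edgeR 4.0.16 and DESeq2 1.42.0 on the recovered reads, removal of trends with GC content and length (GENCODE 29 transcripts), a replicate block and leaving out libraries were tried. Same-numbered libraries deviated together in all 18 inhibitor pairs (correlations 0.13 to 0.524) and all 3 MB-3 pairs (0.208 to 0.389). Differently numbered pairs reached 0.236 in the inhibitor experiment (DEX 1 with KJ-PYR-9+DEX 2) and 0.194 in MB-3. In the inhibitor experiment the pairing was clearest for replicate 3 (0.406 to 0.524) and less sure for replicates 1 and 2.

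The members and gene lists were chosen with earlier results of these data known. Values per library are given for the 6 members with the smallest p in each comparison and for others described by role; all members that passed are named, and up to 4 genes of each other list, except 1 DNA repair gene that is not reported here. Partner ratios were chosen after values were seen, with exact permutation tests. Replicates differed beyond counting noise in all 24 pairs within groups (chi-square per gene 3.11 to 81.17). The labels call them biological replicates without naming separate cultures, so p-values measure the spread between these samples.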

Additional observations from a re-analysis of the deposited data

How the results depend on the processing

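Counts of members are given as higher or lower. In the knockdown, the lower count was 1 with a pseudocount of 8 (5.97% of all genes) and with quantile scaling (7.37%). It was also 1 with a trended and robust prior (7.19%) and with the GC content and length trends removed (7.34%). It was 2 with a mean of at least 50 (7.75%) and with edgeR (8.24%), and 8 with DESeq2 (11.9%). Quantile scaling gave 11 higher (20.8% of all genes) and 5 lower (22.9%) for KJ-PYR-9, with a median of 0.0055 and MCM4 at -0.17. It gave 7 lower for DEX (13.6%), 6 higher for KJ-PYR-9+DEX against VEH (16.6%), and 2 higher for the interaction (10.5%, median 0.015). edgeR gave 6 lower for KJ-PYR-9 (26.8% of all genes), 5 lower for DEX (9.89%) and 1 higher for the interaction (9.21%). DESeq2 gave 6 lower for KJ-PYR-9 (26.0%), 6 lower (12.4%) and 1 higher (15.0%) for DEX, and 1 higher for the interaction (10.3%). The trended prior gave 1 lower for the interaction (10.4% of all genes). Neither count tool was run for MB-3, whose table holds no low values from which to check the step of 1 read.

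With the GC content and length trends removed, the counts were 9 higher (16.4% of all genes) and 1 lower (8.06%) for KJ-PYR-9. For DEX 0 were lower (3.92%). For KJ-PYR-9+DEX they were 3 (6.73%) and 1 (4.9%) against VEH, and 5 (14.0%) and 6 (18.1%) against DEX. For the interaction 3 were lower (11.7%). Directions reversed, with or without the block, for POLE with DEX (0.043), for E2F1 (-0.00013), MCM7 (-0.0027) and CDT1 (-0.07) against VEH, and for E2F1 (-0.053), E2F2 (-0.572), MCM6 (0.135), MCM7 (-0.159), CDT1 (-0.331) and RFC3 (0.453) against DEX. The replicate block with that step gave 5 higher for KJ-PYR-9+DEX against VEH (11.9% of all genes). Against DEX it gave 5 higher (18.2%) and 8 lower (24.9%), and for the interaction 6 lower (18.7%). The causes were not tested.

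The replicate block gave 9 lower for KJ-PYR-9 (25.8% of all genes), and 4 higher (23.9%) and 8 lower (19.6%) for DEX. It gave 13 lower for KJ-PYR-9+DEX against VEH (28.0%), and 1 higher (12.4%) and 6 lower (20.0%) for the interaction. In the knockdown the same-numbered pairs did not deviate together (correlations -0.346 to -0.02, 0 of 3 over 0.1). There the block gave 0 members and 403 genes higher and 67 lower in all, against 1679 and 707 without it. In MB-3 the block also gave 0 members, beside 0.0597% of all genes higher and 0.0796% lower.

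Leaving out DEX 1 and KJ-PYR-9+DEX 3 together, chosen after seeing the data, gave 1 lower against VEH (9.87% of all genes) and 6 lower against DEX (27.8%, median 0.207). Leaving out single libraries gave 0 to 2 lower in the knockdown (median -0.26 to -0.036). For KJ-PYR-9 it gave 13 to 15 higher and 1 to 2 lower (median 0.127 to 0.327), and for DEX 0 to 2 higher and 0 to 2 lower (median -0.05 to 0.203). For KJ-PYR-9+DEX it gave 2 to 12 higher and 1 to 8 lower against VEH (median -0.034 to 0.192), and 13 to 15 higher and 9 to 16 lower against DEX (median -0.044 to 0.132). For the interaction it gave 0 to 2 lower (median -0.334 to -0.104), and for MB-3 0 in either direction (median -0.087 to -0.027). No share of all genes is given for the runs without a single library, here or above. Those counts show only how far the calls depended on single libraries. With 3 libraries a group, an absent call does not show that a member stayed level.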

Other observations

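Of 16 DNA repair genes that E2F is known to activate, 0 rose and 4 fell with KJ-PYR-9 against VEH, beside 25.4% and 17.5% of all genes, among them XRCC2 (-1.31), USP1 (-1.24) and BRIP1 (-0.91; limma). With KJ-PYR-9+DEX against DEX, 0 rose and 14 fell, beside 33.6% and 35.1% of all genes, with a median of -0.97. BRCA2, a gene of homologous recombination, fell by 2.64 (SE 0.37, limma adjusted p = 0.0002403) and BRIP1, a helicase of crosslink repair, by 2.03 (SE 0.29). In this comparison the Spearman correlation of fold change with GC content was 0.815 over all genes. The share of all genes called lower was 18.1% with the GC content and length trends removed, and 27.8% without DEX 1 and KJ-PYR-9+DEX 3. No such counts are given for the repair genes, and the part of base composition was not tested. DEX alone raised BRCA2 by 1.24 and FANCD2 by 0.52 (9.5% of all genes) and lowered 0 (8.02%). In siMYC, XRCC2 and FANCD2 fell by 0.76 and 0.59 (4.78% of all genes) and 0 rose (11.4%), and in MB3 none of the 16 passed.

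In the knockdown, 5 of 10 log2 ratios between partners, in pairs chosen after their values were seen, did not overlap between siCtl and siMYC, and 5 did. Of all single genes, 43.7% did not overlap, and no share is given for ratios of other genes. The log2 ratio of POLA2 to POLA1 was -2.40, -2.59 and -2.40 in siCtl and -1.95, -0.97 and -1.41 in siMYC, a difference of 1.02. The log2 ratio of RRM1 to RRM2, the large and small subunits of ribonucleotide reductase, was -0.60, -0.56 and -0.79 in siCtl and -1.12, -1.42 and -1.18 in siMYC, a difference of -0.59. Neither ratio overlapped between the groups (two-sided exact permutation p = 0.1 each, the smallest that 3 against 3 allows). A pick after the values were seen favours such separation, so this is only a description.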
